A study of Mus musculus with 2 samples.

Results

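The genes followed here are 9 readouts of the regenerating and fetal-like state of the gut epithelium: Ly6a, Clu, Cyr61, Anxa1, Anxa3, Anxa5, S100a6, Areg and Plaur. They were taken by name, and all 9 were present among the 17829 genes of the deposited count matrix. Live cells of the mouse colon that stained for EpCAM, a surface protein of epithelial cells, had been sorted by flow cytometry and sequenced with the 10x Genomics 3' kit. There was 1 library of C57BL/6 mice labelled Mettl14 WT and 1 of C57BL/6 mice labelled Mettl14 KO, and the series text places both at 2 weeks without saying from when. Mettl14 forms, with Mettl3, the core of the methyltransferase that places m6A on RNA. How the gene was deleted, the promoter of any Cre, the age and sex of the animals and how many were pooled are not given in the sources used here.

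After injury the colonic epithelium is rebuilt by cells that pass through a state resembling the fetal gut, in which the surface protein Ly6a (also called Sca-1) is a common marker and the adult stem cell programme, marked by Lgr5, is low. The Hippo pathway bears on this state: its effector YAP enters the nucleus, pairs with TEAD transcription factors and turns on targets such as Cyr61, while Clu, which encodes the secreted chaperone clusterin, marks rare cells that appear after damage in the mouse intestine. Areg, an epidermal growth factor family ligand, and Plaur, the urokinase receptor, belong to wound repair, and the annexins and S100a6 are calcium-binding proteins that act at membranes and the cytoskeleton.

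The Mettl14 WT library held 4210 cells and 60205658 unique molecular identifiers (UMIs, each counting 1 captured RNA molecule), and the Mettl14 KO library 3653 cells and 37635762 UMIs. A level is given as CPM, the UMIs of a gene scaled to 1000000 UMIs summed over the cells named, and a ratio as log2 of the KO level over the WT level. Every interval covers 95% and counting error only. With 1 library for each genotype no difference has a replicate check, library and genotype cannot be told apart, and no test was made. Mettl14 stood at 10.5 CPM in the WT and 5.34 CPM in the KO library, and whether its 3' tags lie in the deleted part is not known. Epcam was detected in 97.8% of WT and 99.2% of KO cells. By their markers, 5 of the 7 deposited clusters took a name: goblet-like for 1 and 2, cycling-like for 3, colonocyte-like for 4 and enteroendocrine-like for 5. Cluster 0 was led by pancreatic enzyme genes and stayed unnamed: acinar markers made up at least 1% of the UMIs of 33 WT and 0 KO cells, and in the cluster they summed to 7701 CPM in the WT and 105 CPM in the KO library. Cluster 6 was led by collagen genes and held 117 WT and 31 KO cells, so its values are given without a comparison. The libraries shared 2 cell barcodes. Of other cell types, the 14 immune markers summed to 107 CPM in the WT and 150 CPM in the KO library, the 12 stromal markers to 130 and 22.3 CPM, the 15 acinar markers to 1810 and 146 CPM and the 8 mesothelial markers, of which 3 were detected in each library, to 0.947 and 22.3 CPM. The mesothelin gene Msln alone gave 0.0332 CPM of the WT and 21.7 CPM of the KO mesothelial sum. It is also on the list of other regeneration genes below. Without the 364 WT and 292 KO cells with immune or stromal markers the same 3 members were past 1.5-fold upward and the same 4 downward.

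The 9 genes did not move together. Ly6a was 8.53-fold higher in the KO library, Areg 3.19-fold and Plaur 1.64-fold. Cyr61 was 7.10-fold lower, Clu 3.38-fold, Anxa1 1.72-fold and Anxa5 1.57-fold. Anxa3 and S100a6 lay within 1.5-fold of the WT level. By this fold, 3 of the 9 were higher, while 17.0% of all 13334 genes with at least 50 UMIs were, and 4 of the 9 were lower, while 16.7% of all genes were. Their median log2 ratio was −0.01, and that of all genes −0.04. Among the 13334 genes, 95 had a higher ratio than Ly6a and 196 a lower ratio than Cyr61.

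**Figure D1:**
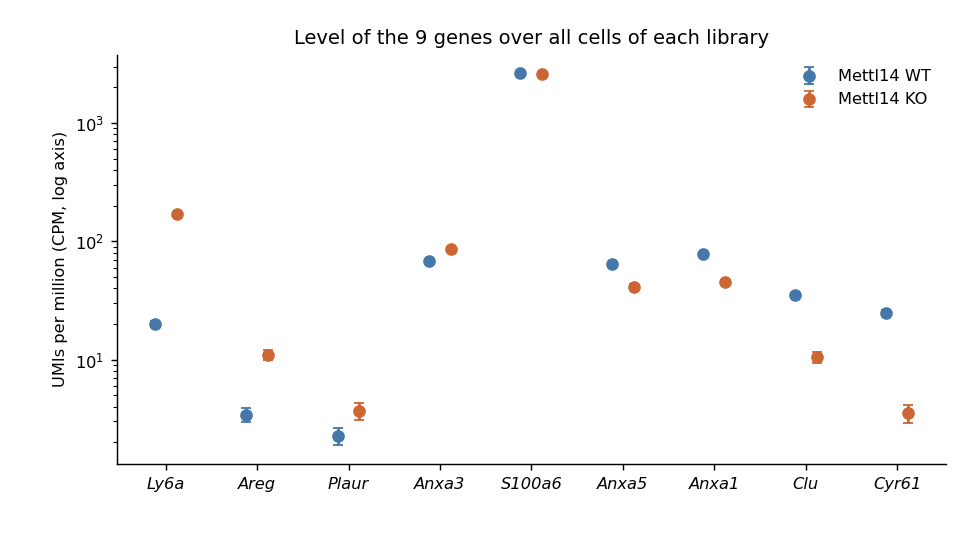
Level of each of the 9 genes over all cells of the WT library (blue) and the KO library (orange), in CPM on a log axis, with exact Poisson 95% intervals, most of which are narrower than the points. Ly6a lies at 20.05 CPM in the WT and 171 CPM in the KO library, and Cyr61 at 24.9 and 3.51 CPM.

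Ly6a, which encodes a membrane-anchored protein of the Ly6 family, was the member with the highest ratio. It stood at 20.05 CPM (interval 18.9 to 21.2) in the WT and 171 CPM (167 to 175) in the KO library, from 1207 and 6438 UMIs, a log2 ratio of 3.09 (3.004 to 3.183). The gene lies on chromosome 15 at 74994877 to 74998031 on the minus strand (GRCm38, GENCODE vM21). Ly6 genes resemble each other in sequence, and how reads that fit several of them were counted is not given in the sources used here.

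Across the KO clusters, Ly6a was highest in colonocyte-like cluster 4, with 361 CPM (345 to 378), followed by goblet-like cluster 2 with 247 CPM (234 to 260), goblet-like cluster 1 with 165 CPM (157 to 174) and cluster 0 with 131 CPM (122 to 139). The cycling-like cells at 82.8 CPM (77.3 to 88.6) and the enteroendocrine-like cells at 71.0 CPM (56.4 to 88.3) had overlapping intervals. In the WT library cluster 4 was again the highest of the 6 compared clusters with 46.8 CPM (42.6 to 51.3), and cluster 2 came next with 26.6 CPM (23.5 to 30.0). The WT levels of the other 4 compared clusters ran from 7.85 CPM in cluster 0 to 15.8 CPM in cluster 5, and neighbours in this order had overlapping intervals. Each cluster had more Ly6a in the KO library: the log2 ratio was 4.06 (3.76 to 4.37) in cluster 0, 3.84 (3.55 to 4.15) in cluster 1, 3.21 (3.02 to 3.41) in cluster 2, 2.63 (2.42 to 2.85) in cluster 3, 2.95 (2.80 to 3.10) in cluster 4 and 2.17 (1.45 to 2.95) in cluster 5. In KO cluster 0, 673 Ly6a UMIs came from 282 cells with a UMI of Ccl20, Spib or Msln, at 245 CPM, and 254 from the other 534 cells, at 58.4 CPM. The 1020 WT cells of cluster 0 without these genes had 8.26 CPM, and without the cells that carried them the ratio of the cluster was 2.82. These 3 genes were chosen after the values had been seen.

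More cells carried Ly6a as well. A Ly6a UMI was found in 13.4% of WT and 41.1% of KO cells as deposited. With every cell thinned to 3000 UMIs, which left out 172 WT and 97 KO cells of lower depth, the shares were 4.51% (3.89 to 5.19) and 23.1% (21.7 to 24.5). In the thinned KO library the share ran from 6.04% (2.80 to 11.2) of enteroendocrine-like cells to 37.5% (33.2 to 42.0) of colonocyte-like cells. None of these classes is known to lack Ly6a, so the enteroendocrine-like share is the lowest value that can be set beside the others, at the same depth. Cells with at least 10 Ly6a UMIs numbered 14 in the WT library, 9 of them in cluster 4, and 169 in the KO library, where 58 lay in cluster 4, 39 in cluster 2, 32 in cluster 1 and 23 in cluster 0. Ly6a is also known as an interferon-induced gene. A list of 24 interferon response genes was drawn up after the Ly6a values had been seen. Of these, 20 were higher in the KO library by 1.5-fold or more (17.0% of all genes) and 1 was lower (16.7%). Their median log2 ratio was 1.06. The part of the interferon response in the Ly6a ratio was not tested.

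**Figure D2:**
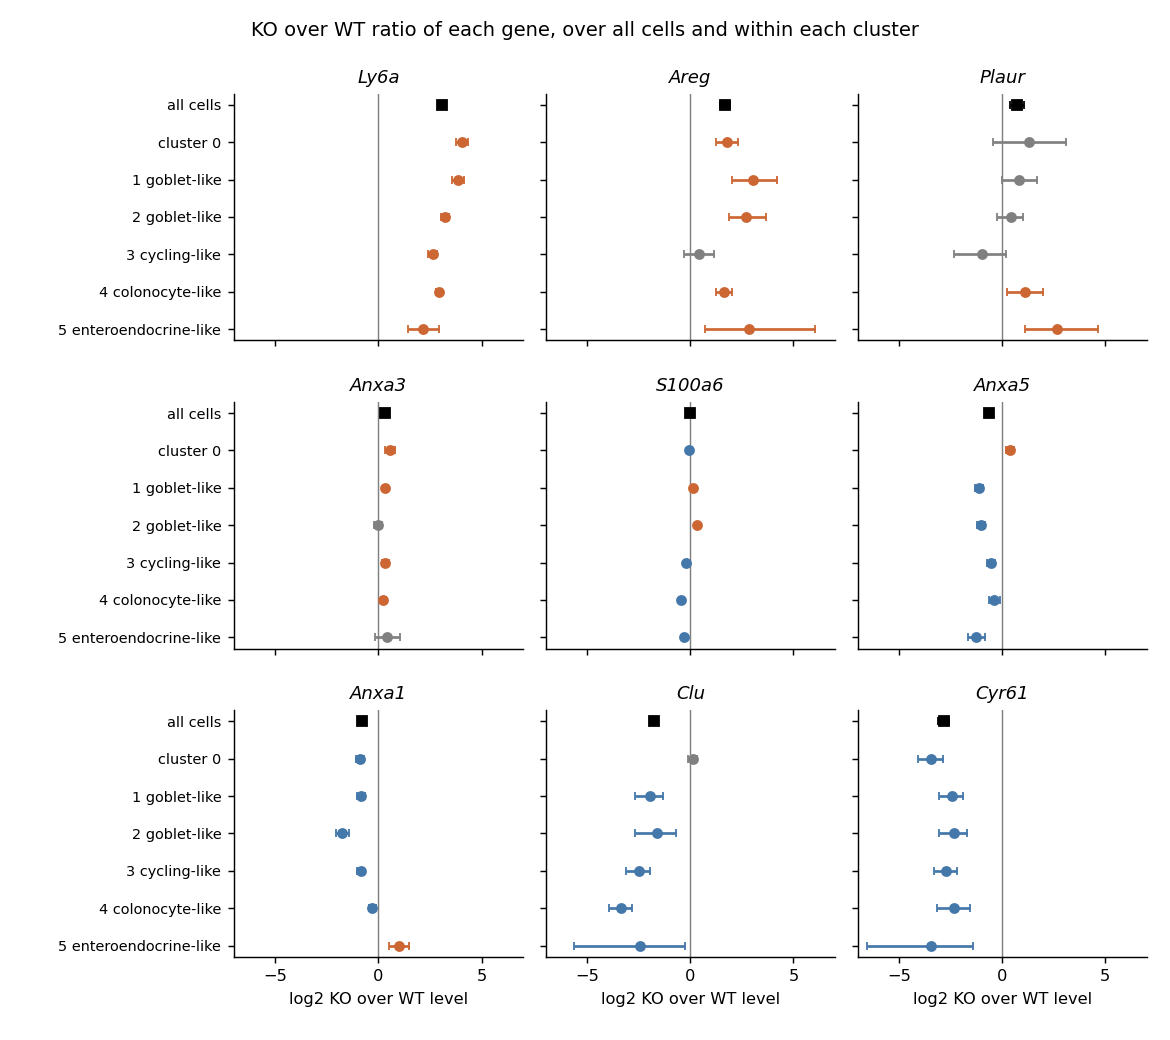
Log2 ratio of KO over WT level for each gene, over all cells (black square) and within each of the 6 compared clusters (circles), with exact 95% intervals. Orange marks a cluster whose interval lies above 0, blue one below 0 and grey one that holds 0. Ly6a lies above 0 and Cyr61 below 0 in every cluster drawn, while Anxa1, Anxa5 and S100a6 have clusters whose intervals lie on either side of 0.

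Areg, a ligand of the epidermal growth factor receptor (EGFR), was the second member with a higher level. Its 205 WT and 409 KO UMIs gave 3.40 CPM (2.95 to 3.90) and 10.9 CPM (9.84 to 11.97), a log2 ratio of 1.67 (1.43 to 1.92). By cluster it was 3.04 (2.03 to 4.22) in cluster 1, 2.72 (1.88 to 3.65) in cluster 2, where 1 KO cell held 19 of the 55 UMIs and the ratio without it was 2.11, 1.77 (1.26 to 2.29) in cluster 0 and 1.64 (1.26 to 2.04) in cluster 4. In the cycling-like cells the WT level was 2.20 CPM and the KO level 2.94 CPM, with an interval of the ratio from −0.32 to 1.16, so no difference was detectable at this depth. The enteroendocrine-like cells held 2 WT and 13 KO UMIs. Areg was highest in colonocyte-like cells of both libraries, at 9.38 CPM (7.56 to 11.5) in the WT and 29.3 CPM (24.7 to 34.5) in the KO library. Few cells carried it at a thinned depth: 0.916% (0.646 to 1.26) of WT cells and 2.36% (1.89 to 2.92) of KO cells. In colonocyte-like cells these shares were 1.88% (0.974 to 3.26) and 6.04% (4.08 to 8.56).

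Areg lies on chromosome 5 at 91139599 to 91148432 on the plus strand (GRCm38). Its 250 bases upstream of the start, from RefSeq on GRCm38.p6 at chr5:91139349-91139598, plus strand, are shown because they hold a full cAMP response element, the palindrome TGACGTCA, which factors of the CREB family bind, and a TATA box (TATAAA). Both are in capitals:

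Areg: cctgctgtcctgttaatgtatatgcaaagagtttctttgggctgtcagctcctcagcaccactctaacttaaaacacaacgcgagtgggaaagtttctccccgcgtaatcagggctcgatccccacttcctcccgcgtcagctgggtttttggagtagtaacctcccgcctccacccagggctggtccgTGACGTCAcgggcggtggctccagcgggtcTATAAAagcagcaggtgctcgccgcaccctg

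The response element spans positions −61 to −54 and the TATA box −31 to −26, counted from the start. Searched on both strands, TGACGTCA was found in 1.62% of the same window in 27025 RefSeq promoters, and TATAAA in 12.97%. A match describes the sequence, and no binding was measured.

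Plaur, the receptor that holds the protease urokinase at the cell surface, was detected in few cells. It had 135 WT and 138 KO UMIs, or 2.24 CPM (1.88 to 2.65) and 3.67 CPM (3.08 to 4.33), a log2 ratio of 0.71 (0.36 to 1.06). The thinned shares of cells were 0.644% (0.421 to 0.942) and 0.844% (0.570 to 1.20), whose intervals overlap. Among the clusters with at least 50 UMIs, the ratio was 0.82 (−0.01 to 1.69) in cluster 1 and 0.40 (−0.23 to 1.03) in cluster 2, both with intervals that hold 0. The colonocyte-like cells held 23 WT and 25 KO UMIs, the enteroendocrine-like cells 4 and 23 and the cycling-like cells 26 and 8. In the KO library, 1 enteroendocrine-like cell held 21 of the 23 UMIs and 1 colonocyte-like cell 12 of the 25. The gene lies on chromosome 7 at 24462484 to 24475968 on the plus strand (GRCm38).

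Cyr61 (Ccn1 in the annotation), a secreted matricellular protein and a standard readout of YAP and TEAD activity, had the lowest ratio of the 9. It stood at 24.9 CPM (23.7 to 26.2) in the WT and 3.51 CPM (2.93 to 4.16) in the KO library, from 1499 and 132 UMIs, a log2 ratio of −2.83 (−3.09 to −2.57). All 6 compared clusters had less Cyr61 in the KO library. It was −3.45 (−4.09 to −2.87) in cluster 0, −2.74 (−3.32 to −2.21) in cluster 3, −2.45 (−3.04 to −1.90) in cluster 1, −2.34 (−3.04 to −1.70) in cluster 2, −2.32 (−3.16 to −1.57) in cluster 4 and −3.43 (−6.56 to −1.42) in cluster 5, which held 24 WT and 2 KO UMIs. Among the 6 compared clusters of the WT library cluster 0 was highest, with 38.4 CPM (35.1 to 41.9), and the intervals of the other 5 clusters overlapped at levels from 16.1 to 20.5 CPM. The KO levels of the 6 clusters lay between 1.75 and 3.95 CPM, with overlapping intervals. No KO cell held more than 3 Cyr61 UMIs, while the highest WT cell held 15.

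With cells thinned, 6.41% (5.68 to 7.21) of WT cells and 1.01% (0.710 to 1.40) of KO cells carried a Cyr61 UMI. Cyr61 is also an immediate early gene, of the kind that cell handling induces. An immediate early list with 17 measured genes was drawn up after the Cyr61 values had been seen. Of these, 12 were lower in the KO library by 1.5-fold or more (16.7% of all genes) and 1 was higher (17.0%). Their median log2 ratio was −1.21. The part of the immediate early response in the Cyr61 ratio was not tested. The gene lies on chromosome 3 at 145646976 to 145649981 on the minus strand (GRCm38). Its 250 bases upstream of the start, from RefSeq on GRCm38.p6 at chr3:145649986-145650235, minus strand, are shown because Cyr61 is read as a TEAD target and they hold the core of a TEAD site, written CATTCC on this strand, beside a TATA box. Both are in capitals:

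Cyr61: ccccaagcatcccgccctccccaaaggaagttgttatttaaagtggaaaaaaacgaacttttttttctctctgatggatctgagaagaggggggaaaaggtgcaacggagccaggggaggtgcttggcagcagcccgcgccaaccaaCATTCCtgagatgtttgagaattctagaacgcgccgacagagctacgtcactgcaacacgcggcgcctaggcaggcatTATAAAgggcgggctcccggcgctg

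The TEAD core spans positions −103 to −98 and the TATA box −25 to −20. Searched on both strands, the core was present in 12.6% of the 27025 promoter windows. Of the 6 members with a RefSeq promoter, Anxa1 also held it, at −236 to −231.

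Clu had the most uneven distribution over cells. Over all cells it stood at 35.3 CPM (33.8 to 36.8) in the WT and 10.4 CPM (9.44 to 11.5) in the KO library, from 2125 and 393 UMIs, a log2 ratio of −1.76 (−1.92 to −1.60). The colonocyte-like cells had the lowest cluster ratio, −3.34 (−3.92 to −2.82), with 61.6 CPM (56.8 to 66.7) in the WT and 6.07 CPM (4.09 to 8.66) in the KO library. The ratio was −2.50 (−3.11 to −1.95) in cluster 3, −1.97 (−2.68 to −1.31) in cluster 1 and −1.63 (−2.70 to −0.69) in cluster 2, and cluster 5 held 12 WT and 2 KO UMIs. Cluster 0 stood apart: its levels were 37.5 CPM (34.2 to 41.0) in the WT and 40.7 CPM (36.2 to 45.7) in the KO library, with a ratio of 0.12 (−0.10 to 0.33). The same cluster had fewer cells with a Clu UMI in the KO library, 4.21% (2.92 to 5.87) against 8.35% (6.75 to 10.2) when thinned. Clu lies on chromosome 14 at 65968483 to 65981547 on the plus strand (GRCm38).

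Much of the Clu in either library came from few cells. In the WT library, 24 cells with at least 3 UMIs of Spp1, which encodes osteopontin, held 33.6% of all Clu UMIs, and 15 of them lay in cluster 6, where they reached 6030 CPM. In the KO library, 725 cells with a UMI of the chemokine gene Ccl20, the transcription factor gene Spib or the mesothelin gene Msln held 81.7% of the Clu UMIs. They made up 19.8% of the KO cells. The 194 such cells of the WT library were 4.61% of its cells and held 4.19% of its Clu UMIs. Of the 289 Clu UMIs of KO cluster 0, 277 came from 282 such cells, at 101 CPM, and 12 from the other 534 cells, at 2.76 CPM. The 9 KO cells with at least 10 Clu UMIs all lay in cluster 0 and all carried Ccl20, Spib and Msln. Of the 39 WT cells at that level, 16 lay in cluster 6 and 15 in cluster 4. Without the cells with Spp1 the ratio over all cells was −1.17, and without those with Ccl20, Spib or Msln it was −3.85. Within cluster 0 the ratio without such cells was −3.82. Without cluster 0 it was −3.35 over the remaining cells, and without cluster 6, −1.32. Spp1 too was chosen after the values had been seen. These genes were among those that led the cells with at least 10 Clu UMIs, Spp1 in the WT library and Ccl20, Msln and Spib in the KO library. Leaving out cells chosen by them therefore sets in part which way, and how far, the Clu ratios move. The acinar-rich WT cells held 6.26% of the WT Clu UMIs, and without them the ratio of cluster 0 was 0.53.

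**Figure D3:**
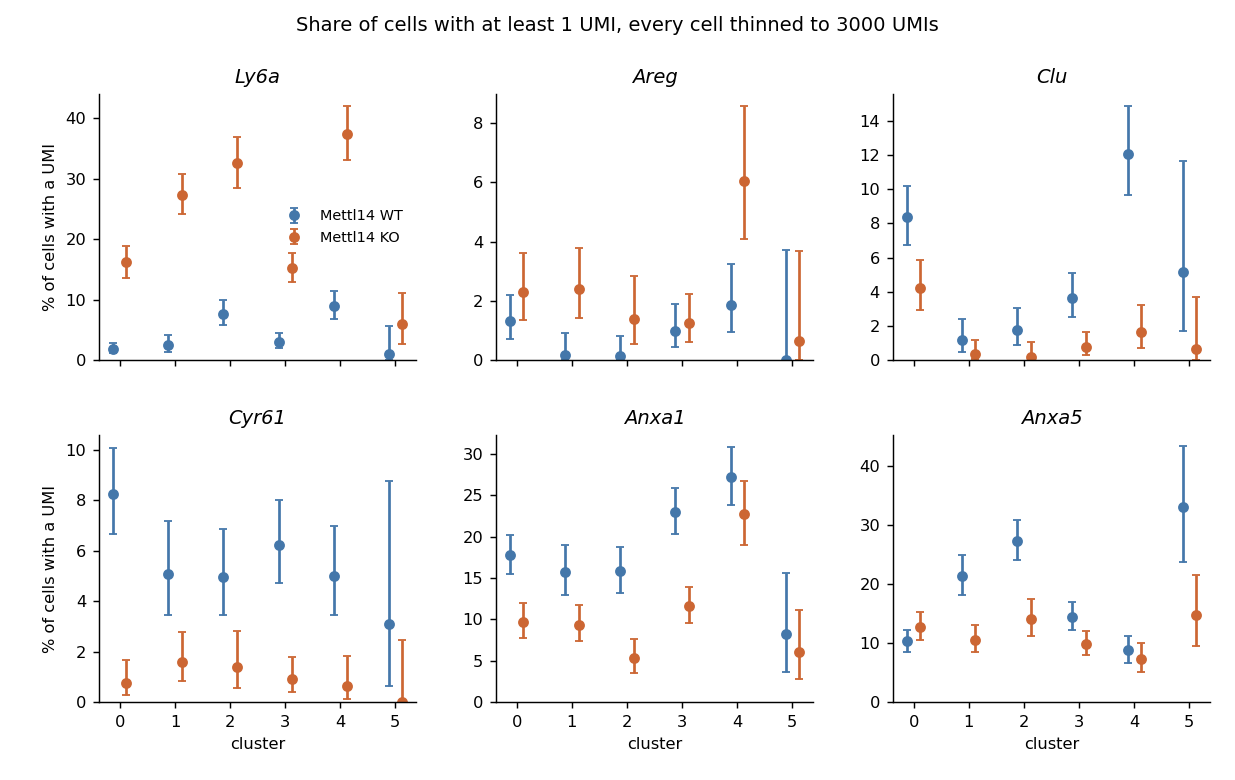
Share of cells with at least 1 UMI in clusters 0 to 5 of the WT (blue) and KO (orange) library, with every cell thinned to 3000 UMIs and exact 95% intervals, for 6 of the 9 genes. In colonocyte-like cluster 4 the Ly6a share is 8.92% in the WT and 37.5% in the KO library, and the Clu share is 12.1% and 1.67%.

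The 3 annexins, proteins that bind phospholipid membranes when calcium is present, took different courses. Anxa1, known for limiting inflammation and aiding mucosal repair, stood at 77.5 CPM (75.3 to 79.8) in the WT and 45.2 CPM (43.1 to 47.4) in the KO library, a log2 ratio of −0.78 (−0.86 to −0.70). Goblet-like cluster 2 had the lowest ratio, −1.75 (−2.08 to −1.44), with 59.3 and 17.6 CPM, while clusters 0, 1 and 3 lay between −0.89 and −0.84. The colonocyte-like cells had the highest WT level, 117 CPM (110 to 124), and a KO level of 95.7 CPM (87.2 to 105), with a ratio of −0.29 (−0.45 to −0.13). In the enteroendocrine-like cells the level was higher in the KO library, 97.3 against 48.9 CPM, with a ratio of 0.99 (0.53 to 1.47), but 1 KO cell held 72 of the 111 UMIs. The thinned shares of cells of that class were 8.25% (3.63 to 15.6) in the WT and 6.04% (2.80 to 11.2) in the KO library. Over all cells the thinned share was 19.5% (18.3 to 20.8) and 11.1% (10.1 to 12.2). Anxa1 lies on chromosome 19 at 20373428 to 20390944 on the minus strand (GRCm38), and 1500015L24Rik overlaps it on the other strand. Whether the counting used strand is not given in the sources used here.

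Anxa5, which binds phosphatidylserine on the surface of dying cells, stood at 64.5 CPM (62.5 to 66.6) in the WT and 41.2 CPM (39.1 to 43.3) in the KO library, a log2 ratio of −0.65 (−0.73 to −0.56). In enteroendocrine-like cells it was −1.25 (−1.67 to −0.84), and these had the highest WT level of the compared clusters, 144 CPM (123 to 166). Both goblet-like clusters were lower as well, with −1.12 (−1.32 to −0.92) in cluster 1 and −1.01 (−1.20 to −0.82) in cluster 2. Cluster 0 went the other way, with 40.5 CPM (37.2 to 44.2) in the WT and 52.0 CPM (46.8 to 57.6) in the KO library, a ratio of 0.36 (0.16 to 0.55), which was −0.20 without the cells with Ccl20, Spib or Msln. Anxa3 had 68.6 CPM (66.5 to 70.7) in the WT and 86.9 CPM (83.9 to 89.9) in the KO library, a ratio of 0.34 (0.27 to 0.41). Its KO level was highest in colonocyte-like cells, 167 CPM (156 to 179), and in goblet-like cluster 1, 149 CPM (141 to 157), as in the WT library, where these clusters had 143 and 118 CPM. The thinned share of cells with Anxa3 was 16.6% (15.5 to 17.8) in the WT and 18.0% (16.7 to 19.3) in the KO library, with overlapping intervals. Anxa3 lies on chromosome 5 at 96793339 to 96845966 on the plus strand, and Anxa5 on chromosome 3 at 36448923 to 36475894 on the minus strand (GRCm38).

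S100a6, which encodes the calcium sensor calcyclin, was found in nearly all cells: 96.8% of WT and 97.3% of KO cells as deposited. Its level was 2620 CPM (2607 to 2633) in the WT and 2596 CPM (2579 to 2612) in the KO library, a log2 ratio of −0.01 (−0.025 to −0.002). Behind this near-equal total, the clusters differed in sign. The goblet-like clusters had more in the KO library, with ratios of 0.30 (0.28 to 0.33) in cluster 2 and 0.14 (0.12 to 0.17) in cluster 1. The colonocyte-like cells had less, at 3151 against 4340 CPM, with a ratio of −0.46 (−0.49 to −0.44), and so did the cycling-like cells, with −0.22 (−0.25 to −0.19). None of these ratios reached 1.5-fold. S100a6 lies on chromosome 3 at 90612882 to 90624181 on the plus strand (GRCm38).

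The same count of members past 1.5-fold was taken within each cluster. In cluster 0, 2 of 8 measured members were higher, against 20.2% of all measured genes, and 2 were lower, against 13.5%. In both goblet-like clusters 4 of 9 were lower, where all genes gave 17.5% in cluster 1 and 17.7% in cluster 2, and 3 and 2 were higher, where all genes gave 13.6% and 14.9%. The cycling-like cells had 1 of 8 higher (17.8% of all genes) and 3 lower (12.4%). In colonocyte-like cells 2 of 8 were higher (16.6%) and 2 lower (13.8%), and in enteroendocrine-like cells 2 of 5 were higher (16.8%) and 1 lower (11.8%). The 2 higher members of the enteroendocrine-like cells were Ly6a and Anxa1, and 1 KO cell held 72 of the 111 KO Anxa1 UMIs. Without that cell the Anxa1 ratio was below 0. Ly6a was among the higher genes in all 6 clusters. Cyr61 was among the lower genes in clusters 0 to 4 and had under 50 UMIs in cluster 5.

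Cells that carried several of the genes were rare in both libraries. Of the 8 genes other than S100a6, at least 4 were found in 11 WT cells (0.272%) and 27 KO cells (0.759%) after thinning, and 11 of the KO cells were colonocyte-like. A thinned cell carried on average 0.714 of the 8 genes in the WT and 0.690 in the KO library, and 47.8% and 51.1% of cells carried none. In the KO library Ly6a was found in 66.7% (47.2 to 82.7) of cells with a Plaur UMI and 22.7% (21.3 to 24.1) of cells without one. The share was 47.6% (36.6 to 58.8) with Areg and 22.5% (21.1 to 23.9) without, 48.1% (34.3 to 62.2) with Clu and 22.7% (21.3 to 24.1) without, and 38.2% (34.4 to 42.1) with Anxa3 and 19.8% (18.3 to 21.3) without. With Cyr61 it was 22.2% (10.1 to 39.2) and without it 23.1% (21.7 to 24.5), which overlap. These shares pool the clusters, so cells of classes rich in both genes add to them. In the WT library Ly6a was found in 16.2% (6.19 to 32.0) of the 37 cells with Areg and 4.40% (3.78 to 5.08) of the others. There the share was 3.85% (0.0973 to 19.6) with Plaur and 4.51% without, and 5.35% (2.88 to 8.97) with Clu and 4.45% (3.82 to 5.16) without, with overlapping intervals.

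**Figure D4:**
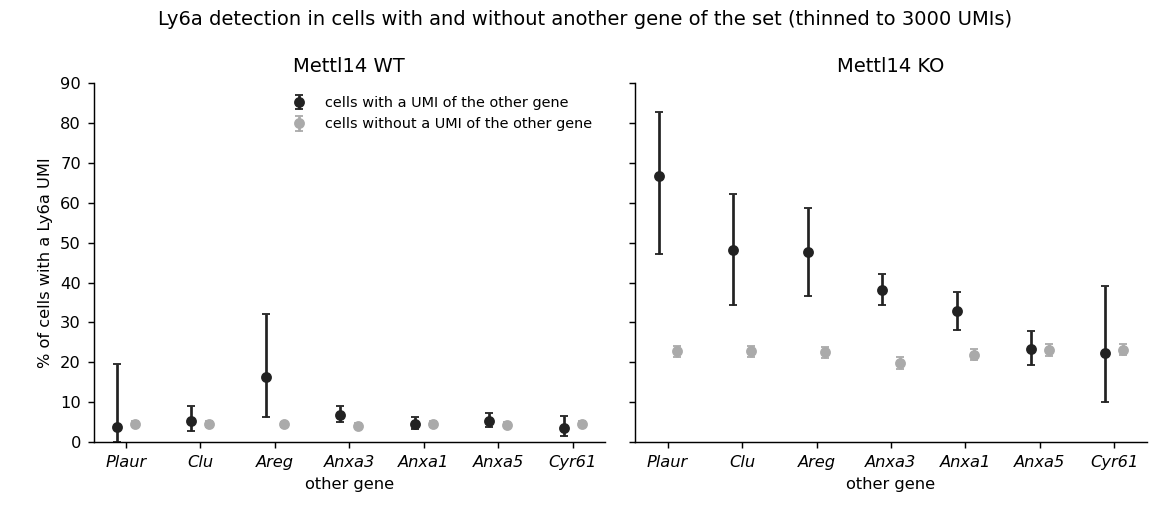
Share of cells with a Ly6a UMI among cells with (black) and without (grey) a UMI of another gene of the set, in the WT (left) and KO (right) library, with cells thinned to 3000 UMIs and exact 95% intervals. In the KO library the Ly6a share is 66.7% in cells with Plaur and 22.2% in cells with Cyr61.

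At full depth, 15 KO and 6 WT cells carried Anxa1, Areg and Plaur together, a combination chosen after the values had been seen. The 15 KO cells were 0.411% of their library and held 39.9% of its Plaur UMIs, 19.1% of its Areg UMIs and 12.2% of its Anxa1 UMIs. They held 4870 to 28521 UMIs each, against a median of 9119 in their library. Ly6a was present in 14 of them and Clu in 0, while 41.1% and 3.53% of all KO cells carried these genes at the deposited depth. For Clu, 15 cells are too few to tell 0 from a share of 3.53%. The cell with the most held 72 Anxa1, 29 Ly6a, 21 Plaur and 8 Areg UMIs among 16474 in all, and came from the enteroendocrine-like cluster. It also carried 236 UMIs of Slpi, a secreted protease inhibitor, 30 of F3, which encodes tissue factor, 26 of Sprr1a, a cornified envelope protein gene, and 16 of Ly6g. A colonocyte-like cell had a like set, with 50 Anxa1, 25 Ly6a, 12 Plaur and 8 Areg UMIs, 94 of Slpi, 23 of F3 and 12 of Sprr1a. The 6 WT cells held 16660 to 35290 UMIs each, against a median of 12094 in their library. In them none of the 3 members Anxa1, Areg and Plaur exceeded 6 UMIs. Cyr61 was present in 5 of them, against 19.1% of all WT cells. Without the cells that carried all 3, the log2 ratio over all cells was 0.06 for Plaur and 1.45 for Areg. The cells were chosen for carrying these genes, which sets in part how far the ratios fall: they held 39.9% of the KO and 5.19% of the WT Plaur UMIs.

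Lists of related genes, several of which share members and which were chosen with earlier results of these data known, were set beside the members. All list ratios here and below are over all cells, with cluster 6 included. The stromal markers summed to 130 CPM in the WT and 22.3 CPM in the KO library. The part of stromal cells in the ratios of list genes was not tested. Of 23 measured other genes of the regenerating or fetal-like state, 4 were at least 1.5-fold higher and 7 lower, with a median log2 ratio of 0.21, against 17.0% and 16.7% of all genes and a median of −0.04. Msln had 2 WT and 818 KO UMIs and Sprr1a 21 and 110, while Spp1 had 1973 and 9 and Il33, an alarmin gene, 81 and 4. The Spp1 UMIs were found in 0.903% of WT cells. Of 19 measured YAP and TEAD targets, 3 were higher and 5 lower, with a median of −0.22. Rbms3 was at −2.75 (−3.25 to −2.29), Amotl2, which binds YAP, at −1.06 (−1.42 to −0.71) and Igfbp3 at −1.38 (−2.24 to −0.61), while Arhgef17 was at 1.26 (0.85 to 1.67). In the Hippo pathway itself 0 of 15 genes were higher and 3 lower. Wwtr1, which encodes the YAP relative TAZ, was at −2.36 (−3.28 to −1.56), the scaffold gene Sav1 at −0.80 (−0.95 to −0.66) and Tead3 at −0.67 (−0.95 to −0.39), while Tead1 was at 0.47 (0.37 to 0.56). Yap1 was at 27.0 and 26.9 CPM.

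Around Areg, 0 of 16 measured EGFR ligands, receptors and pathway genes were higher (17.0% of all genes) and 7 were lower (16.7%). Their median was −0.46. The ligand gene Hbegf was at −1.79 (−1.98 to −1.61), and the genes Etv5, Spry2 and Errfi1, which EGFR signalling induces, were at −1.63 (−1.84 to −1.42), −1.32 (−1.46 to −1.18) and −1.16 (−1.29 to −1.03). Areg thus stood on the other side of 0 from the ligand Hbegf. Around Plaur, 2 of 7 measured genes of the urokinase system and its integrins were higher (17.0%) and 2 lower (16.7%). Their median was 0.30. Itga5, an integrin subunit, was at 1.03 (0.58 to 1.48), and Mmp9, a matrix metalloproteinase gene, with 25 UMIs in each library, at 0.68 (−0.18 to 1.54). Mmp9 is named here because it was 1 of these 2, after its value had been seen. Itga3, at 0.52 (0.39 to 0.66), lay within 1.5-fold. Serpine2, a protease inhibitor, was at −2.14 (−2.87 to −1.47). Vtn, the gene of the Plaur ligand vitronectin, had 58 UMIs in the WT and 0 in the KO library, or at least 12.1-fold lower against a floor of 3 counts over the KO library.

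For the relatives of the members by family and for stem cell genes, the shares of all genes were again 17.0% higher and 16.7% lower. The family lists are short. Among 7 measured other Ly6 genes 4 were higher and 1 lower, with a median of 0.84. Ly6c1 was at 2.46 (1.90 to 3.06), Ly6g at 1.18 (0.89 to 1.47), Ly6e at 0.87 (0.83 to 0.92) and Ly6g6e at 0.84 (0.69 to 0.98). Of 6 measured other annexins 0 were higher and 2 lower: Anxa6 at −1.64 (−1.93 to −1.36) and Anxa4 at −0.60 (−0.64 to −0.56), with Anxa2 just inside the fold at −0.58 (−0.63 to −0.54). Of 10 other S100 genes 0 were higher and 3 lower. S100a8 and S100a9, genes of neutrophils, were at −1.61 (−1.87 to −1.35) and −1.58 (−1.81 to −1.35), and S100a14 was at −1.08 (−1.17 to −0.99). The 8 WT cells with at least 10 Anxa1 UMIs had 1856 CPM of S100a8 and 2210 CPM of S100a9, each carried by 1 cell. The other WT cells had 4.94 and 6.77 CPM, and the KO library had 4.01 and 5.18 CPM. Of 18 colonic stem cell genes 1 was higher and 7 lower, with a median of −0.40. Lgr5, the marker of the adult stem cell, was at −3.47 (−3.67 to −3.28), and 4.71% of KO and 34.3% of WT cells carried it at the deposited depth. Smoc2 and Hopx were at −1.72 (−1.88 to −1.56) and −1.56 (−1.63 to −1.49), and Olfm4 at 3.81 (2.75 to 5.07) from 8 WT and 70 KO UMIs.

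**Figure D5:**
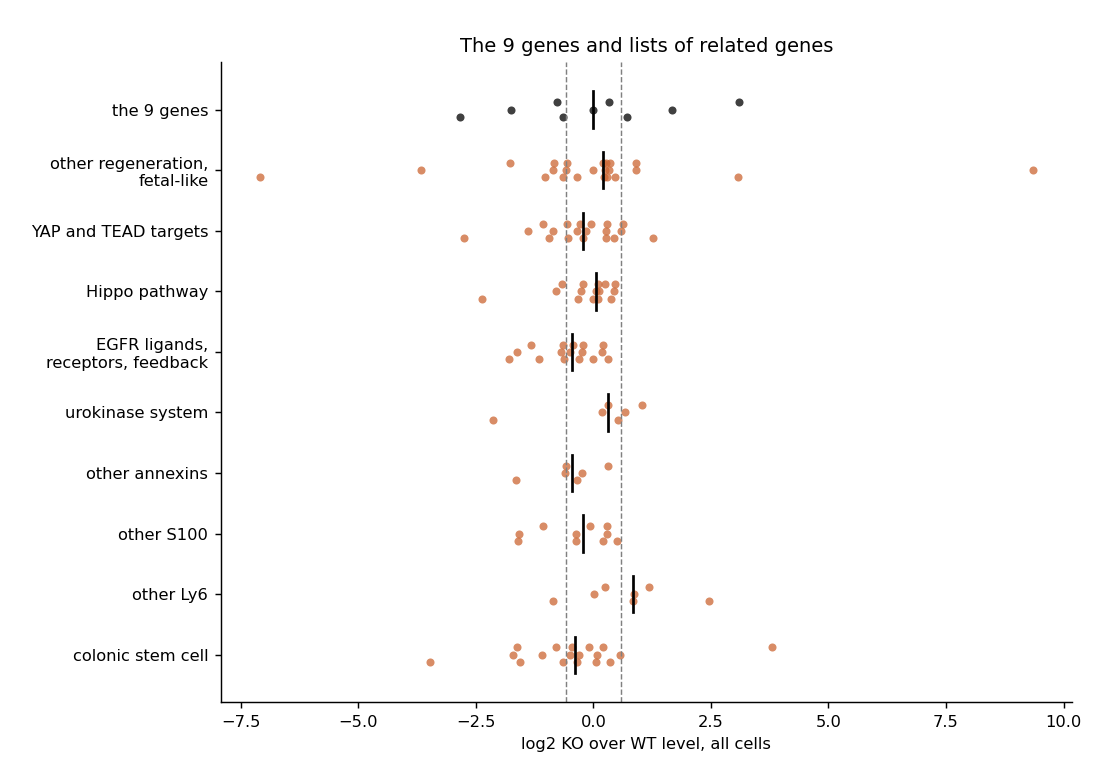
Log2 ratio of KO over WT level over all cells for the 9 genes (black) and the measured genes of 9 related lists (orange), 1 point a gene, with the list's median as a black bar. The dashed lines mark 1.5-fold, and Vtn, with 0 KO UMIs, has no point. The medians run from −0.46 for the EGFR list and the other annexins to 0.84 for the other Ly6 genes.

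Across the 13 sums of a cluster and library with at least 50 cells, the genes whose log2(CPM + 1) followed each member most closely were found among 10818 genes with at least 200 UMIs. These points share libraries and depth, so the correlations are descriptions. Ly6a was followed by Chmp6 (Pearson r = 0.977), Slc35f6 and Htatip2, Areg by Sptlc2 (0.931) and Gal3st1, and Plaur by Atg12 (0.935), Tmem127 and Rab11fip4. Cyr61 was followed by Spry2 (0.958), Gpc3 and the immediate early gene Jun (0.945), and Clu by Itga7 (0.944), Mylip and Mme. For the annexins the closest genes were Ccni (0.920), Lrch1 and Phldb1 for Anxa1, Cd9 (0.931), Klf4 and Myo5c for Anxa3, and Ttc6 (0.9503), Trim68 and Ypel2 for Anxa5. S100a6 was followed by Dstn (0.917), Lrrc66 and Entpd8. Among the members themselves Clu and Cyr61 had r = 0.792, Anxa3 and S100a6 0.717, Ly6a and Areg 0.689, and Cyr61 and Areg −0.789.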

How the data were processed

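The deposited values are UMI counts by gene and cell, already filtered by the authors, with a second table of library and cluster for every cell. The submitters' processing notes name bcl2fastq, Cell Ranger and mm10; versions, the cell filter and the clustering method are not given in the sources used here. The shallowest cell held 792 UMIs, and no cell exceeded 20.0% mitochondrial UMIs. The 9 genes and all lists were chosen with earlier results of these data known.

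CPM were computed from summed counts over all cells or the cells of 1 cluster (Python 3.11.15, NumPy 2.4.6, SciPy 1.17.1, pandas 2.3.3). Intervals are exact: Poisson for CPM, conditional binomial for ratios, Clopper-Pearson for shares. They cover counting error only, and UMI totals per library set their width. Genes needed 50 UMIs in the sum of both libraries and were called at 1.5-fold. A cluster needed 50 cells in each of the libraries to be compared. A cluster name came from the marker list with the highest mean standardized level in that cluster, and needed at least 3 detected markers. In clusters 0 and 6 the acinar and stromal lists scored highest, and these clusters were left unnamed. Named were all members, up to 4 genes a list by the interval bound nearest to 0, the 3 genes most like each member (1 is not reported here), Mettl14, Lgr5 and markers; other genes, among them Ccl20, Spib, Slpi and Yap1, were chosen after their values were seen. No doublets were removed. As an alternative, 437 WT and 304 KO cells that held Xist as well as Y-linked UMIs were left out. Of the 9 members, 6 matched a RefSeq promoter. The ratio and interval code was tested on simulated data.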

Additional observations from a re-analysis of the deposited data

Results flagged for a closer look

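For 3 members the ratio of KO over WT level had opposite signs in different clusters, with intervals that both exclude 0. The difference between the clusters was not tested. Anxa1 was at 0.99 in enteroendocrine-like cluster 5 and −1.75 in goblet-like cluster 2. In cluster 5, 1 KO cell held 72 of the 111 KO Anxa1 UMIs, and the ratio was below 0 without it. Anxa5 was at 0.36 in cluster 0 and −1.25 in cluster 5. Its cluster 0 ratio was below 0 without the cells with Ccl20, Spib or Msln. S100a6 was at 0.30 in goblet-like cluster 2 and −0.46 in colonocyte-like cluster 4.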

How the results depend on the processing

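No paired analysis was possible because each genotype had 1 library and the labels give no replicate numbers. The counts over all cells were recomputed under 25 alternatives, of which 22 were planned and 3 were added after the data had been seen. The number of members higher in the KO library was 2 or 3 throughout, and the number lower 2 to 4. At a fold of 2, the lower count was 2 instead of 4, since Anxa1 and Anxa5 lie under that fold. Plaur dropped under 1.5-fold in cells with Y-linked and no Xist UMI (0.15), without cluster 5 (0.50), with each cell weighted equally (0.52), without the top 1% of cells (0.21) and without the cells with Anxa1, Areg and Plaur (0.06). Anxa5 lay under 1.5-fold in the cells with Xist (−0.56), without cluster 1 (−0.54) and without cluster 2 (−0.52), where the lower count was 3. For 8 members the sign over all cells was the same in all 22 alternatives that recompute a ratio, and S100a6 kept its sign in 18. The ranges were 2.52 to 3.75 for Ly6a, −3.85 to −1.17 for Clu, −3.28 to −2.55 for Cyr61 and 1.45 to 2.12 for Areg. In enteroendocrine-like cells the Anxa1 ratio turned to −0.50 without the cells with Anxa1, Areg and Plaur, and likewise without the 1 KO cell that had held 72 of 111 UMIs. Depth limits Plaur and Areg most, with 135 and 205 WT UMIs, and cluster 5, with 99 WT and 151 KO cells.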

Other observations

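Each library held cells with Xist and cells with Y-linked transcripts. In cells without a Y-linked UMI that held 3 or more of Xist, Ly6a was at 14.7 CPM in the WT and 197 CPM in the KO library, a log2 ratio of 3.75 (3.59 to 3.91). In cells with a Y-linked and no Xist UMI it was at 24.5 and 141 CPM, a ratio of 2.52 (2.38 to 2.67). Clu was at −1.53 (−1.78 to −1.29) and −1.42 (−1.69 to −1.16), Cyr61 at −2.84 (−3.25 to −2.46) and −2.55 (−3.06 to −2.08), and Areg at 1.77 (1.39 to 2.17) and 1.64 (1.16 to 2.14). All 9 members had the same sign in both sets of cells. For Plaur the interval held 0 in the cells with Y-linked UMIs, at 0.15 (−0.64 to 0.90) from 47 WT and 23 KO UMIs. The number of animals behind either set is not given, and the difference between the sets was not tested.

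Cluster 6, with its collagen genes, had other levels of several members. In its 117 WT cells Clu was at 934 CPM (861 to 1012), Anxa5 at 311 CPM (269 to 357), Cyr61 at 154 CPM (125 to 187) and Ly6a at 53.4 CPM (37.0 to 74.6). In its 31 KO cells the counts were 8 for Clu, 11 for Anxa5, 4 for Cyr61 and 8 for Ly6a. Areg had 0 UMIs in both, with an exact upper limit of 5.79 CPM in the WT cells. The stromal markers summed to 9646 CPM in the WT and 5976 CPM in the KO cells of this cluster, and the immune markers to 3203 and 150 CPM. In 2 of the 39 WT cells with at least 10 Clu UMIs, the seminal vesicle secretory genes Svs4 and Svs5 were found as well.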
